A study of Homo sapiens with 8 samples.

Results

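Integrins and the focal adhesion proteins behind them were followed in ribosome footprints of 293T cells (an adherent line from human embryonic kidney, transformed with the large T antigen of SV40). Members were taken by name, with earlier results of these data known, and needed a minimum of 10 counts summed over the 8 libraries. The names were the integrin chains numbered ITGA or ITGB, ITGAV and ITGAE, and a set of cytoplasmic or membrane partners. Of 36 such symbols with any read, 34 reached the minimum, out of 17179 gene symbols in all. ITGA10 had 7 counts and ITGB6 had 9, and both were set aside. ITGB1, ITGA6 and TLN2 were not analysed here. The 34 members comprised 11 integrin alpha chains, 6 integrin beta chains, 3 talin or kindlin genes, 4 genes of the ILK complex, 4 of the FAK and paxillin group, 3 tensins, 2 caveolins and the connexin GJA1.

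The libraries formed 4 groups of 2. In the shRNA arm, a non-cleaving hairpin named shNBD1 was set against a control for shRNA. The inhibitor arm held cells given miRNA inhibitors and cells given their negative control. All groups were 293T cells grown in serum, and every library held reads of an NBD1 reporter. The labels give no dose, time or clone, do not name the inhibited miRNAs and do not say whether replicates were separate cultures, and p-values therefore reflect only library-to-library spread, possibly technical. A footprint count is the number of sequenced mRNA fragments that ribosomes shielded from nuclease, and without RNA libraries a change in it can reflect mRNA level, translation or both.

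Integrins are receptors built from an alpha and a beta chain that bind matrix outside the cell, and the choice of alpha chain largely sets the ligand. Talins and kindlins bind the tail of the beta chain and switch the receptor on. ILK with its partners PINCH and parvin, and the scaffolds paxillin, p130Cas, zyxin and tensin, connect the receptor to actin filaments and to kinases such as FAK. Together these proteins form focal adhesions, through which cultured cells hold on to the dish and sense its stiffness. Caveolins shape flask-like pits of the plasma membrane, and GJA1 (connexin 43) forms gap junction channels.

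Levels are given as CPM, counts scaled to a common library size, and total counts per library ranged from 11218980 to 19854218. CPM values of different genes are not set against each other, because coding lengths were not used here. Replicates within the shRNA arm lay close together, at 1.45 for the control and 2.88 for shNBD1 as chi-square over its degrees of freedom, where sampling alone gives about 1. Those of the inhibitor arm lay farther apart, at 15.3 and 22.4, and ZYX, BCAR1 and ITGB3 were higher in replicate 2 than in replicate 1 of both of its groups. The kidney-line markers VIM, KRT8 and KRT18 were abundant, PAX2 and NEFM had a few CPM or less, and NEFL was not analysed here. The 7 kidney-line markers summed to between 5420.3 and 5456 CPM in the shRNA control, 8519.8 and 8848 under shNBD1, 4853 and 5853 in inhibitor controls and 5306 and 5883 under the inhibitors, and 5 of them rose with shNBD1. Markers of leukocytes (PTPRC, CD3E, CD79A), platelets and red cells (GP1BA, HBB) each had 12 counts or fewer over all libraries. Summed levels of the 3 smooth muscle markers ACTA2, DES and MYH11 lay between 311 and 339 CPM in shRNA controls, 379.7 and 382 under shNBD1, 530.1 and 557 in inhibitor controls and 433 and 461 under inhibitors. Those of the 4 fibroblast markers lay between 39.8 and 40.6, 54.9 and 60.2, 27.2 and 46.8, and 44.8 and 64.0 CPM in the same order, with DCN at 5 counts in all. The 3 macrophage markers, mostly CD68, lay between 38.0 and 38.5, 26.9 and 27.2, 12.6 and 15.7, and 11.8 and 14.0 CPM. The keratinocyte markers KRT5 and KRT14 summed to between 0.598 and 1.06, 2.38 and 2.84, 1.74 and 3.68, and 3.88 and 10.4 CPM, with KRT5 at 13 counts in all and KRT14 at 1.60 ± 0.73 with shNBD1 and 1.37 ± 0.48 with the inhibitors, neither called. The 3 endothelial markers summed to between 0.996 and 1.23, 1.16 and 1.42, 1.53 and 2.04, and 1.75 and 3.21 CPM. Of the smooth muscle, fibroblast and macrophage markers DES, MYH11 and LUM rose with shNBD1 and CD68 fell. The part of these shifts in the results was not tested.

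With shNBD1 most of the members that changed went up. Of 33 tested, 13 rose and 2 fell (edgeR's quasi-likelihood test, adjusted p under 0.05), against 18.3% of all genes called, 9.18% higher and 9.15% lower. Thus 45.5% of the tested members were called, and their median log2 fold change was 0.24, beside 0.00 over all genes. ITGB7, with 17 counts in all, was too low to be tested. With the inhibitors only ITGA8 was called among the members, and it fell, against 0.12% of all genes called, 0.0376% higher and 0.0827% lower, while 8 of 33 members (24.2%) had an unadjusted p under 0.05, against 16.4% of all genes. Members were chosen by name with earlier results of these data known, so these counts describe the list.

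**Figure D1:**
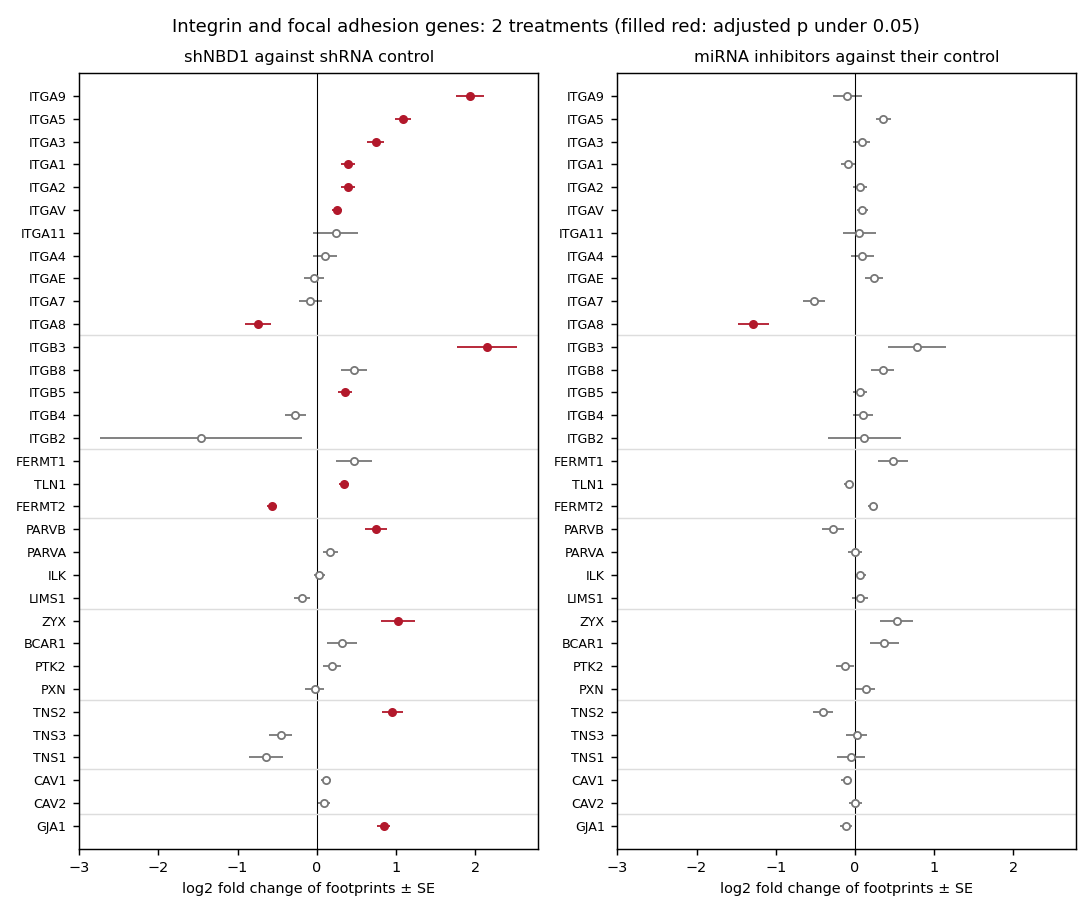
Log2 fold change of ribosome footprints with its standard error for the 33 tested members, with shNBD1 against the shRNA control on the left and the miRNA inhibitors against their control on the right, 2 libraries a group. Grey lines part the classes in the order alpha chains, beta chains, talin and kindlins, ILK complex, FAK and paxillin group, tensins, caveolins and GJA1, and filled red points passed an adjusted p of 0.05. On the left 13 points lie filled to the right of 0, and on the right ITGA8 is the filled point.

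Of 11 tested alpha chains 6 rose with shNBD1 and ITGA8 fell, against 9.18% of all genes called higher and 9.15% lower. The 6 that rose have ligands among fibronectin, vitronectin, tenascin, collagens and laminins. ITGA5 (ENSG00000161638, chromosome 12, 54395261 to 54419266, GRCh38.p14), the alpha chain of the classical fibronectin receptor, stood at 47.1 and 50.4 CPM in shRNA controls, 102 and 105 under shNBD1, 64.4 and 68.2 in inhibitor controls and 76.8 and 93.6 under inhibitors. Both shNBD1 libraries were far above both of their controls, and all 4 inhibitor-arm libraries lay in between. Its log2 fold change with shNBD1 was 1.09 ± 0.10 (SE; 2.13-fold, adjusted p = 9.02e-05, edgeR). With the inhibitors it was 0.36 ± 0.09 (adjusted p = 0.136), with the higher value in inhibitor replicate 2.

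ITGA9 (ENSG00000144668, chromosome 3, 37452141 to 37823507), whose receptor binds tenascin and other matrix proteins, had few footprints in 3 of the groups. It stood at 2.39 and 2.21 CPM in shRNA controls, 8.68 and 9.05 under shNBD1, 3.37 and 3.32 in inhibitor controls and 3.06 and 3.21 under inhibitors. The shNBD1 libraries were apart from all 6 others, which kept within 2.21 and 3.37 CPM. The change with shNBD1 was 1.94 ± 0.17 on the log2 scale (3.83-fold, adjusted p = 9.67e-05, edgeR), and with the inhibitors -0.10 ± 0.18. RefSeq lists an antisense gene, ITGA9-AS1, over part of this locus, and whether counting used strand is not given in the sources used here.

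ITGA3, the alpha chain of a laminin receptor, stood at 23.9 and 24.96 CPM in shRNA controls, 39.0 and 42.6 under shNBD1, 30.4 and 34.4 in inhibitor controls and 31.8 and 37.2 under inhibitors. It rose by 0.74 ± 0.11 with shNBD1 (adjusted p = 0.00161, edgeR), without overlap between the groups. The collagen receptor chains ITGA1 and ITGA2 rose less. ITGA1 stood at 64.9 and 62.4 CPM in shRNA controls, 85.3 and 82.0 under shNBD1, 71.3 and 67.6 in inhibitor controls and 71.1 and 59.0 under inhibitors, a change of 0.39 ± 0.09 with shNBD1 (adjusted p = 0.0145). ITGA2 stood at 34.1 and 38.2 CPM in shRNA controls, 46.6 and 48.1 under shNBD1, 44.5 and 41.7 in inhibitor controls and 46.6 and 42.9 under inhibitors, a change of 0.39 ± 0.09 (adjusted p = 0.0142). ITGA1 and ITGA2 lie next to each other on chromosome 5, and each shNBD1 library was above each shRNA control library for both genes.

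ITGAV, the alpha chain shared by the vitronectin receptors, had 30715 footprints over all libraries. It stood at 266 and 275 CPM in shRNA controls, 324 and 320.0 under shNBD1, 207 and 209.6 in inhibitor controls and 229 and 215 under inhibitors. With shNBD1 it rose by 0.25 ± 0.06 (1.19-fold, adjusted p = 0.0216, edgeR). The shRNA arm as a whole lay above the inhibitor arm for this chain, with no overlap of the 4 libraries on each side.

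ITGA8 (ENSG00000077943, chromosome 10, 15513954 to 15719922), a receptor chain for nephronectin and fibronectin known from kidney development, moved the other way. It stood at 46.4 and 45.8 CPM in shRNA controls, 27.3 and 27.8 under shNBD1, 29.2 and 19.9 in inhibitor controls and 11.6 and 8.13 under inhibitors. Treated libraries lay below both of their own controls in each arm, and the inhibitor control itself lay well below the shRNA control. The log2 fold change was -0.74 ± 0.17 with shNBD1 (adjusted p = 0.0134) and -1.28 ± 0.19 with the inhibitors (adjusted p = 0.0396, edgeR). It was the single member called for both treatments. The difference between these effects did not pass, at 0.54 ± 0.26 (adjusted p = 0.225). The fall with the inhibitors had an adjusted p of 0.568 when fitted on the 4 libraries of that comparison alone, with a log2 fold change of -1.29.

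The other alpha chains gave no call for either treatment. ITGA4, of a leukocyte and fibronectin receptor, ran from 15.2 to 23.1 CPM over the 8 libraries, ITGAE, which pairs with ITGB7 to bind E-cadherin, from 10.9 to 17.1, and ITGA11, a collagen receptor chain, from 1.23 to 4.13. ITGA7, a laminin receptor chain of muscle, ran from 17.3 to 29.4 CPM, with both inhibitor libraries below both of their controls (-0.52 ± 0.14, adjusted p = 0.14). For shNBD1 the calls of ITGA5, ITGA9 and ITGA3 held without any single library. Those of ITGA1, ITGA2, ITGAV and ITGA8 were lost, with the same sign, when any library of the shRNA arm was left out. The adjusted p was 0.102, 0.178, 0.202 and 0.109 without control replicate 1 and 0.127, 0.051, 0.117 and 0.0856 without control replicate 2. Leaving out shNBD1 replicate 1 gave 0.0989, 0.0659, 0.118 and 0.0906, and leaving out replicate 2 gave 0.0887, 0.125, 0.132 and 0.113. The inhibitor call of ITGA8 was lost without inhibitor control replicate 1 (-0.98, adjusted p = 0.0866), without inhibitor replicate 2 (-1.09, 0.151) and without shRNA control replicate 1 or 2 or shNBD1 replicate 1 or 2 (0.131, 0.131, 0.154 and 0.139), which enter through the shared estimate of spread.

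Of 5 tested beta chains, ITGB3 and ITGB5 rose with shNBD1 and none fell, against 9.18% of all genes called higher and 9.15% lower. Both are partners of ITGAV, as is ITGB8, which was not called. ITGB3 (ENSG00000259207, chromosome 17, 47253827 to 47313743), the beta chain of a vitronectin receptor, was low in the shRNA control. It stood at 1.86 and 2.13 CPM in shRNA controls, 8.11 and 9.53 under shNBD1, 2.30 and 3.73 in inhibitor controls and 3.19 and 7.75 under inhibitors. The shNBD1 libraries were highest, inhibitor replicate 2 came close to them, and inhibitor replicate 1 lay within the range of its controls. The change with shNBD1 was 2.15 ± 0.38 on the log2 scale (4.44-fold, adjusted p = 0.00429, edgeR). It was lost without shRNA control replicate 1 (2.05, adjusted p = 0.063). With the inhibitors it was 0.78 ± 0.36 (adjusted p = 0.313).

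ITGB5, another partner of ITGAV, stood at 27.0 and 29.3 CPM in shRNA controls, 37.5 and 34.4 under shNBD1, 29.1 and 29.4 in inhibitor controls and 30.7 and 30.4 under inhibitors. It rose by 0.36 ± 0.09 with shNBD1 (adjusted p = 0.0225, edgeR), a call lost with DESeq2 (adjusted p = 0.0651). Without shRNA control replicate 1 or 2, or shNBD1 replicate 1 or 2, its adjusted p was 0.211, 0.0846, 0.152 and 0.0769. ITGB8, a further ITGAV partner that acts in the release of active TGF-beta, stood at 6.04 and 7.20 CPM in shRNA controls, 9.10 and 9.19 under shNBD1, 12.1 and 9.49 in inhibitor controls and 14.2 and 13.1 under inhibitors. Its change with shNBD1 was 0.47 ± 0.17 (adjusted p = 0.0729), with no overlap of the groups, and that with the inhibitors 0.35 ± 0.14. ITGB4, the partner of ITGA6 in hemidesmosomes, ran from 11.2 to 14.7 CPM and gave no call, with a change of -0.27 ± 0.13 with shNBD1. ITGB2, the leukocyte beta chain, had 44 counts in all, at 0.0664 and 0.164 CPM in shRNA controls, 0 and 0.068 under shNBD1, 0.716 and 0.459 in inhibitor controls and 0.688 and 0.567 under inhibitors. With so few counts in the shRNA arm no fold is given for shNBD1, and with the inhibitors it was at 0.12 ± 0.46 (adjusted p = 0.924, edgeR). ITGB7, another leukocyte chain, had 17 counts.

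Promoter sequences of 4 members, chosen after their values had been seen, are given from RefSeq's table for GRCh38.p14. ITGA5, GJA1 and ZYX rose with shNBD1, and ITGA8 fell with both treatments. The table held a start for 25 of the 34 members, and ITGA9 and ITGB3 were not among them. Each line gives 250 bases before the most upstream start and the first 10 after it, 5′ to 3′ on the gene's strand, with capitals on the motifs found: the AP-1 motif TGANTCA, the TEAD motif CATTCC or the GC box GGGCGG, on either strand.
ITGA5 (chr12:54419257-54419516, minus strand): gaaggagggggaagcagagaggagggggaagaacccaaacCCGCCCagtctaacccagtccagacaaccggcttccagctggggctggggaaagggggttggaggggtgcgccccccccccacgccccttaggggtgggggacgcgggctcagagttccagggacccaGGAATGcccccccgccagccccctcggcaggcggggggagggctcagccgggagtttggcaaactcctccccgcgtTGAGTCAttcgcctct
GJA1 (chr6:121435396-121435655, plus strand): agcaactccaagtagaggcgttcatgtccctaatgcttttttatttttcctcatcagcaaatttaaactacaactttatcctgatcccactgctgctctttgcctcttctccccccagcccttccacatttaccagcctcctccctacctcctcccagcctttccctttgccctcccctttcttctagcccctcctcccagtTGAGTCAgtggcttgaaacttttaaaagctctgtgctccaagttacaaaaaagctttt
ZYX (chr7:143381095-143381354, plus strand): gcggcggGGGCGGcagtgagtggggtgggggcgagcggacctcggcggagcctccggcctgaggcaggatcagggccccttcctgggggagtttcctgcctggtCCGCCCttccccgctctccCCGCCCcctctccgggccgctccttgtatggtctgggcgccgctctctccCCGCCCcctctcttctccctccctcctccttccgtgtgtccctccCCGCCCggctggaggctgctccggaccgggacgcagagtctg
ITGA8 (chr10:15719913-15720172, minus strand): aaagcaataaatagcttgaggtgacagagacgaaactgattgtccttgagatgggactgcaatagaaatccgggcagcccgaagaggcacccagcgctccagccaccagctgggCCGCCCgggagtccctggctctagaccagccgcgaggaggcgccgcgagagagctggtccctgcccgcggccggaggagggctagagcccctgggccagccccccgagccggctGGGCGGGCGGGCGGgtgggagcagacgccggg

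The ITGA5 window held an AP-1 match at positions -6 to 1, counted from the start as 1 with no position 0, beside a TEAD match at -82 to -77 and a GC box at -210 to -205. That of GJA1 held an AP-1 match at -48 to -42. The ZYX window held GC boxes alone, the nearest at -32 to -27. In ITGA8 there were GC boxes at -136 to -131 and 3 that overlap each other between -22 and -9. Over 27305 promoters of the same length, 6.93% held the AP-1 motif, 12.6% the TEAD motif and 42.7% the GC box. Among the 25 members 3 held the AP-1 motif (ITGA5, GJA1 and BCAR1), 1 the TEAD motif and 15 the GC box. CCAAT was found in ITGB8, against 33.7% of all promoters, and neither TATAAA (11.4%) nor a CArG box (1.18%) was found in a member. These matches describe letters in a window.

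Talin rose and kindlin-2 fell with shNBD1. TLN1 (talin 1; ENSG00000137076, chromosome 9, 35696948 to 35732195), which couples integrin tails to actin, had 88065 footprints in all. It stood at 596 and 612 CPM in shRNA controls, 753 and 773 under shNBD1, 780.3 and 758 in inhibitor controls and 753 and 709 under inhibitors. The shRNA control was low and the 6 other libraries lay near each other. The log2 fold change was 0.34 ± 0.06 with shNBD1 (adjusted p = 0.00541, edgeR) and -0.07 ± 0.06 with the inhibitors. The first of these was lost without shRNA control replicate 1 (adjusted p = 0.0915), its replicate 2 (0.0592) or shNBD1 replicate 2 (0.0705).

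FERMT2 (kindlin-2; ENSG00000073712, chromosome 14, 52857273 to 52951050), which activates integrins together with talin, stood at 106 and 104 CPM in shRNA controls, 70.1 and 72.1 under shNBD1, 82.3 and 80.2 in inhibitor controls and 94.95 and 95.9 under inhibitors. The shNBD1 libraries lay below and the inhibitor libraries above their own controls. It fell with shNBD1 (-0.57 ± 0.07, adjusted p = 0.000458, edgeR), a call that held in all 16 alternatives, and both inhibitor libraries were above both of their controls (0.23 ± 0.07, adjusted p = 0.149). FERMT1 (kindlin-1), the epithelial kindlin, had low levels of 3.19 to 7.94 CPM and no call, at 0.47 ± 0.22 with shNBD1 and 0.48 ± 0.19 with the inhibitors.

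Within the ILK complex, 1 of 4 members was called with shNBD1 (25%), against 18.3% of all genes. The parvin paralogs were not tested against each other. PARVB (beta-parvin), which binds ILK and actin, stood at 9.23 and 8.59 CPM in shRNA controls, 15.004 and 14.97 under shNBD1, 14.8 and 12.9 in inhibitor controls and 12.6 and 10.0 under inhibitors. With shNBD1 it rose to the level of the inhibitor control, by 0.75 ± 0.14 (adjusted p = 0.00571, edgeR), and with the inhibitors it was -0.28 ± 0.13. The call was lost without shRNA control replicate 1 (adjusted p = 0.0559), its replicate 2 (0.065) or shNBD1 replicate 2 (0.0538). PARVA (alpha-parvin) stood at 42.6 and 42.3 CPM in shRNA controls, 49.99 and 45.7 under shNBD1, 58.4 and 52.2 in inhibitor controls and 52.8 and 57.6 under inhibitors, a change of 0.17 ± 0.09 with shNBD1 (adjusted p = 0.212).

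ILK, the pseudokinase at the centre of the complex, ran from 68.7 to 74.7 CPM in all 8 libraries. Its changes were 0.03 ± 0.07 with shNBD1 and 0.07 ± 0.07 with the inhibitors. LIMS1 (PINCH-1), the LIM-domain partner of ILK, ran from 29.2 to 38.1 CPM, with changes of -0.19 ± 0.10 and 0.06 ± 0.10. LIMS1 has near-identical copies, LIMS3 and LIMS4, among which the counting could have split its reads, so its level is uncertain.

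Of the FAK and paxillin group, zyxin was the member called. ZYX (ENSG00000159840, chromosome 7, 143381345 to 143391111), which marks mature adhesions and stress fibres under tension, stood at 69.8 and 72.3 CPM in shRNA controls, 138 and 151 under shNBD1, 76.2 and 103 in inhibitor controls and 95.3 and 165 under inhibitors. Both shNBD1 libraries were far above both shRNA controls, and replicate 2 was above replicate 1 in both groups of the inhibitor arm. The log2 fold change with shNBD1 was 1.03 ± 0.21 (adjusted p = 0.00841, edgeR), and with the inhibitors 0.52 ± 0.21 (adjusted p = 0.25). The shNBD1 call was lost without shRNA control replicate 1 (adjusted p = 0.0858), its replicate 2 (0.0652) or shNBD1 replicate 2 (0.0796).

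BCAR1 (p130Cas), an adaptor phosphorylated by Src and FAK, stood at 37.0 and 35.1 CPM in shRNA controls, 41.2 and 48.8 under shNBD1, 34.6 and 42.3 in inhibitor controls and 38.3 and 62.2 under inhibitors. Inhibitor replicate 2 was the highest library for both ZYX and BCAR1. Changes of BCAR1 were 0.32 ± 0.19 with shNBD1 and 0.37 ± 0.19 with the inhibitors, neither called. PXN (paxillin), a scaffold of adhesions, ran from 34.9 to 47.2 CPM with changes of -0.03 ± 0.12 and 0.13 ± 0.12. PTK2 (FAK), the adhesion kinase, ran from 33.8 to 45.2 CPM with changes of 0.19 ± 0.11 and -0.13 ± 0.11.

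Tensins, which bind integrin tails and actin at fibrillar adhesions, did not move as a family. TNS2 (ENSG00000111077, chromosome 12, 53046991 to 53064379) stood at 10.3 and 9.09 CPM in shRNA controls, 17.99 and 19.7 under shNBD1, 13.3 and 15.6 in inhibitor controls and 11.1 and 10.7 under inhibitors. Its shNBD1 libraries were highest of all and its inhibitor libraries lay below their controls. It rose by 0.95 ± 0.13 with shNBD1 (adjusted p = 0.00111, edgeR), a call that held in all 16 alternatives, and was at -0.41 ± 0.13 with the inhibitors (adjusted p = 0.179). TNS1 was at -0.64 ± 0.21 with shNBD1 (adjusted p = 0.0581) and TNS3 at -0.46 ± 0.15 (adjusted p = 0.0523, edgeR), neither called. In each case both shNBD1 libraries lay below both controls. The share of all genes separated in this way was not counted, here or for other members, so separation is given as a description. ILK was separated too, at 0.03 ± 0.07 with shNBD1. TNS1 ran from 2.42 to 6.52 CPM over the libraries and TNS3 from 7.25 to 13.7, and with the inhibitors they were at -0.05 and 0.02.

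The caveolins and GJA1 differed from each other. GJA1 (ENSG00000152661, chromosome 6, 121435646 to 121449727) stood at 80.5 and 76.8 CPM in shRNA controls, 143 and 139 under shNBD1, 61.7 and 66.8 in inhibitor controls and 56.6 and 62.2 under inhibitors. With shNBD1 it rose above every other library, by 0.84 ± 0.08 (1.79-fold, adjusted p = 0.000103, edgeR), and this call held in all 16 alternatives. With the inhibitors it was -0.12 ± 0.08 (adjusted p = 0.476).

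CAV1, the main coat protein of caveolae, stood at 159 and 158 CPM in shRNA controls, 172 and 172 under shNBD1, 111 and 105 in inhibitor controls and 100.4 and 100.1 under inhibitors. CAV2, its partner encoded next to it on chromosome 7, stood at 45.8 and 44.4 CPM in shRNA controls, 46.9 and 49.1 under shNBD1, 33.7 and 34.1 in inhibitor controls and 35.3 and 32.5 under inhibitors. For both caveolins the libraries of the shRNA arm lay above all those of the inhibitor arm. CAV1 was at 0.11 ± 0.06 with shNBD1 and -0.11 ± 0.06 with the inhibitors, and CAV2 at 0.09 ± 0.08 and 0.00 ± 0.08, with no call among these.

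**Figure D2:**
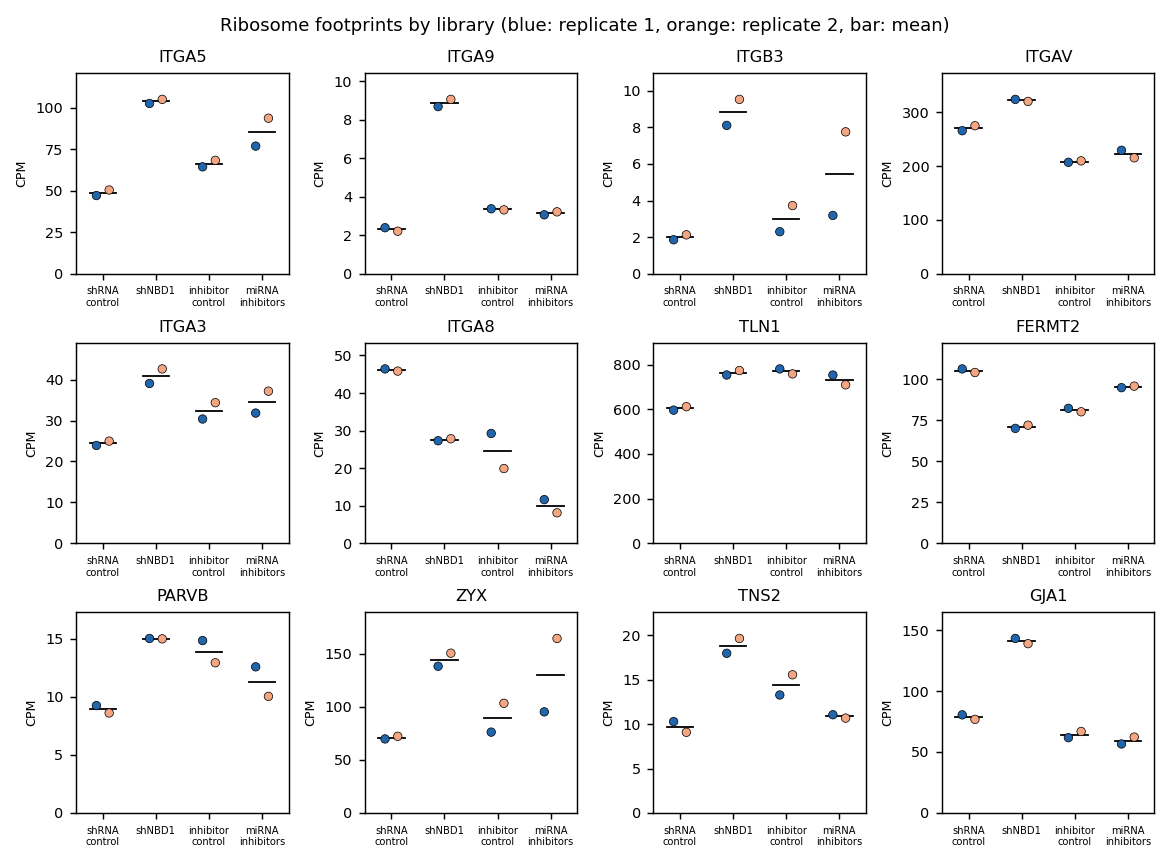
Footprint level in CPM on linear axes from 0 for 12 members in each of the 8 libraries, with blue points for replicate 1, orange points for replicate 2 and a bar at the mean of each group. GJA1 is at 143 and 139 CPM with shNBD1 and at or below 80.5 CPM elsewhere, ITGA8 is lower in each treated group than in its control, and ZYX and ITGB3 are spread apart within the inhibitor arm.

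For 9 of the members the effects of shNBD1 and of the inhibitors differed in a test of the difference itself, against 7.44% of all genes called, 3.48% higher and 3.96% lower. This is 27.3% of the 33 tested, 8 with the higher value for shNBD1 and FERMT2 with the lower. The differences on the log2 scale were 2.03 ± 0.25 for ITGA9 (adjusted p = 0.0019), 1.36 ± 0.18 for TNS2 (0.00248), 1.03 ± 0.20 for PARVB (0.013) and 0.96 ± 0.11 for GJA1 (0.00117). They were 0.73 ± 0.13 for ITGA5 (0.0112), 0.66 ± 0.15 for ITGA3 (0.0277), 0.48 ± 0.13 for ITGA1 (0.0477), 0.41 ± 0.09 for TLN1 (0.022) and -0.80 ± 0.09 for FERMT2 (0.00136, all edgeR). Those of FERMT2, GJA1, ITGA9 and TNS2 held in all 15 alternatives. Leaving out shRNA control replicate 1 gave adjusted p-values of 0.0714, 0.0857, 0.145, 0.166 and 0.145 for PARVB, ITGA5, ITGA3, ITGA1 and TLN1. In the same order they were 0.0784, 0.0516, 0.103, 0.183 and 0.108 without its replicate 2. Leaving out shNBD1 replicate 1 gave 0.0577, 0.0502, 0.0703, 0.159 and 0.0796, and leaving out shNBD1 replicate 2 gave 0.0691, 0.0676, 0.137, 0.151 and 0.12. ITGA1 was also lost with DESeq2 (0.0577), without inhibitor control replicate 1 (0.0758) and without inhibitor replicate 2 (0.0649). For ITGB3, ZYX, ITGA2, ITGAV and ITGB5, called with shNBD1, the difference did not pass (adjusted p from 0.134 to 0.336).

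The controls of the arms differed from each other in many members. With the shRNA control set against the inhibitor control, 6 members were higher and 9 lower of 33, 45.5% of them, against 27.1% of all genes, 13.5% higher and 13.6% lower. The arms differ in the kind of control and in everything handled by arm, which cannot be told apart. These control libraries also serve in the treatment comparisons above, so a low value in the shRNA control enters both.

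Higher in the shRNA control were the caveolins, at 0.55 ± 0.06 for CAV1 (adjusted p = 0.000279) and 0.41 ± 0.08 for CAV2 (0.00477), together with ITGA8 at 0.91 ± 0.17 (0.00347), ITGAV at 0.38 ± 0.06 (0.00245), FERMT2 at 0.37 ± 0.07 (0.00275) and GJA1 at 0.29 ± 0.08 (0.0195). Lower were TLN1 at -0.35 ± 0.06, PARVA at -0.38 ± 0.09, PARVB at -0.63 ± 0.14, TNS2 at -0.57 ± 0.13, ITGA3 at -0.41 ± 0.11 and ITGA5 at -0.44 ± 0.10 (adjusted p from 0.00326 to 0.0197, edgeR). ITGB8 was lower at -0.71 ± 0.16 (0.00881). ITGA11, with 1.79 and 1.23 CPM in shRNA controls, 1.92 and 1.70 under shNBD1, 3.83 and 3.52 in inhibitor controls and 4.13 and 3.40 under inhibitors, was lower at -1.26 ± 0.24 (0.00453). ITGB2 had 3 counts in the shRNA control libraries against 23 in the inhibitor control libraries. It passed the filter on low counts only through the inhibitor arm, where it was high, so its place among the 9 lower members is given as a count and nothing is read from its test. Without it 6 members were higher and 8 lower of 32.

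Calls of CAV1, FERMT2, ITGA8 and ITGAV between the controls held in all 16 alternatives. Without shRNA control replicate 1 the adjusted p became 0.0685 for CAV2, 0.166 for GJA1, 0.142 for ITGA3, 0.0878 for ITGA5, 0.109 for ITGB8, 0.0863 for PARVA, 0.0591 for PARVB and 0.0582 for TLN1. Without its replicate 2 it became 0.0837 for GJA1, 0.088 for ITGA3, 0.0557 for ITGA11, 0.0865 for PARVA, 0.0781 for PARVB and 0.0924 for TNS2. GJA1 was also lost without inhibitor control replicate 1 (0.0791) and ITGA3 without its replicate 2 (0.0837).

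**Figure D3:**
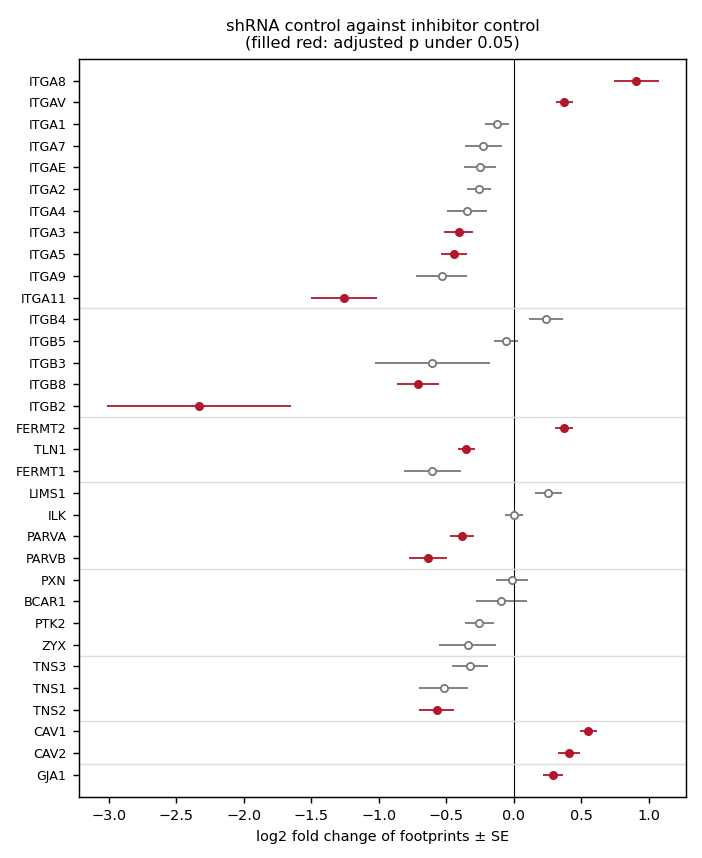
Log2 fold change with its standard error of the shRNA control over the inhibitor control for the 33 tested members, by class as before, 2 libraries a group, with filled red points past an adjusted p of 0.05. ITGA8, ITGAV, FERMT2, GJA1 and both caveolins are filled on the right of 0, and 9 members are filled on the left.

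Other genes of the adhesion machinery, listed by role, were read from the same fit. Calls of single listed genes were not followed through the alternatives, as those of the members were, so how firm each is was not tested. Of 24 tested adaptors and actin linkers, 14 rose with shNBD1 and none fell, against 9.18% of all genes called higher and 9.15% lower. Their median log2 fold change was 0.38 beside 0.00 over all genes. NEDD9, a relative of BCAR1, went from 16.4 ± 1.07 to 32.5 ± 1.45 CPM (mean ± SD, n = 2 each), a change of 0.98 ± 0.11. CSRP1, a LIM protein of actin bundles, rose by 0.82 ± 0.12 and TGFB1I1, a relative of paxillin, by 0.94 ± 0.15 (adjusted p from 0.000393 to 0.00207, edgeR). With the inhibitors 0 of the 24 were called by edgeR, and 6 (25%) had an unadjusted p under 0.05, against 16.4% of all genes.

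Among 15 tested integrin ligands, 8 rose with shNBD1 and none fell (53.3% called, against 18.3% of all genes), with a median of 0.50. LAMA1, a laminin chain, went from 62.2 ± 0.2 to 100.2 ± 2.38 CPM (0.69 ± 0.07, adjusted p = 0.000166). TNC, a tenascin and ligand of ITGA9, went from 104 ± 2.29 to 229 ± 2.67 CPM (1.14 ± 0.15, adjusted p = 0.000799), and COL4A1, a basement membrane collagen, rose by 1.10 ± 0.15 (adjusted p = 0.00116, edgeR). FN1 (fibronectin), the main ligand of ITGA5, was at 0.20 ± 0.07 (adjusted p = 0.0874). NPNT (nephronectin), the ligand of ITGA8, rose by 0.51 ± 0.15 (adjusted p = 0.0355) while ITGA8 itself fell. With the inhibitors THBS1 (thrombospondin 1), a matrix glycoprotein, was the 1 of 15 ligands called, against 0.12% of all genes. It stood at 13.2 and 11.9 CPM in shRNA controls, 36.1 and 34.4 under shNBD1, 138 and 146 in inhibitor controls and 265 and 438 under inhibitors. The change was 1.30 ± 0.18 with the inhibitors (adjusted p = 0.0297, edgeR) and 1.49 ± 0.22 with shNBD1 (0.00184). The inhibitor call was lost in the fit on the libraries of that comparison alone, where 0 genes were called higher.

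Of 13 regulators and membrane partners, 3 rose and 1 fell with shNBD1 (30.8% called, against 18.3% of all genes), with a median of 0.15. SDC4, a syndecan that acts beside fibronectin receptors, rose by 0.59 ± 0.08 (adjusted p = 0.000881), the tetraspanin CD81 by 0.50 ± 0.08 (0.00195) and the tetraspanin CD9 by 0.30 ± 0.06 (0.00816), while the tetraspanin CD82 was at -0.89 ± 0.20 (0.0134, edgeR). Of 20 signalling enzymes and Rac regulators, 4 rose and 1 fell, with a median of 0.01, and the share called (25%) was near the 18.3% of all genes. PAK2, a kinase downstream of Rac, fell by 0.82 ± 0.09 (adjusted p = 0.000437), GIT1, an adaptor of the PIX exchange factors, rose by 0.30 ± 0.07 (0.0195) and CSK, which restrains Src, by 0.31 ± 0.08 (0.0244). Neither list had a call with the inhibitors, where SDC1 was at -0.56 ± 0.10 (adjusted p = 0.0803) and PTPN12 at -0.37 ± 0.11 (0.152).

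Of 4 tested genes of the caveolar coat 3 rose with shNBD1, against 9.18% of all genes called higher, with a median of 0.35. CAVIN1, which is needed to form caveolae with CAV1, rose by 0.67 ± 0.15 (adjusted p = 0.0136), PACSIN2 by 0.28 ± 0.07 (0.0166) and PACSIN3 by 0.38 ± 0.10 (0.0227, edgeR). CAVIN1 was also at 0.54 ± 0.15 with the inhibitors (adjusted p = 0.148). None of 5 tested genes of the gap junction list, which leaves out GJA1, was called with shNBD1 or with the inhibitors. Besides connexins this list held TJP1 and PANX1, which are not connexins. The smallest p with shNBD1 was that of TJP1, a scaffold that binds GJA1, at -0.12 ± 0.07 (adjusted p = 0.245, edgeR). With the inhibitors it was that of PANX1, a channel protein, at 0.25 ± 0.08 (0.192). The 3 tested leukocyte or platelet alpha chains had no call with either treatment, with ITGAX at 1.11 ± 0.37 with shNBD1 (adjusted p = 0.0621) and ITGAL at -0.56 ± 0.50 with the inhibitors (0.6).

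The difference between the treatment effects was called for 5 of 15 ligands (33.3%, against 7.44% of all genes), higher for shNBD1 in each, led by LAMA1 (0.65 ± 0.10, adjusted p = 0.00378), LAMA5 (0.70 ± 0.12, 0.00971) and LAMB1 (0.45 ± 0.09, 0.0125). It was called for 3 of 24 adaptors (12.5%), among them CSRP1 (0.89) and NEDD9 (0.83), and for 4 of 13 regulators (30.8%), SDC4 (0.60), CD9 (0.45), SDC1 (0.72) and CD82 (-1.02). PAK2 (-0.77) and PACSIN2 (0.41) were called in the remaining lists, the former alone among 20 enzymes (5%), below the share of all genes.

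Between the controls, where 27.1% of all genes were called, 6 of 24 adaptors (25%) were lower in the shRNA control and none higher, led by FLNC at -1.25 ± 0.22 (adjusted p = 0.00292). Of 15 ligands 6 were lower and 1 higher (46.7%), among them THBS1 at -3.50 ± 0.21 (8.09e-06) and FN1 at -0.62 ± 0.07 (0.000319). Of 20 signalling enzymes 4 were higher and 3 lower (35%), led by ARHGEF7, a PIX exchange factor, at 0.65 ± 0.07 (0.000242) and RAP1B, a GTPase that recruits talin, at 0.69 ± 0.09 (0.000485, edgeR). Of 13 regulators 3 were higher and 3 lower (46.2%), led by CD82 at -1.20 ± 0.16 (0.000519), and the caveolar coat and gap junction lists had no call. ITGAX was lower at -2.19 ± 0.31 (0.000863).

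**Figure D4:**
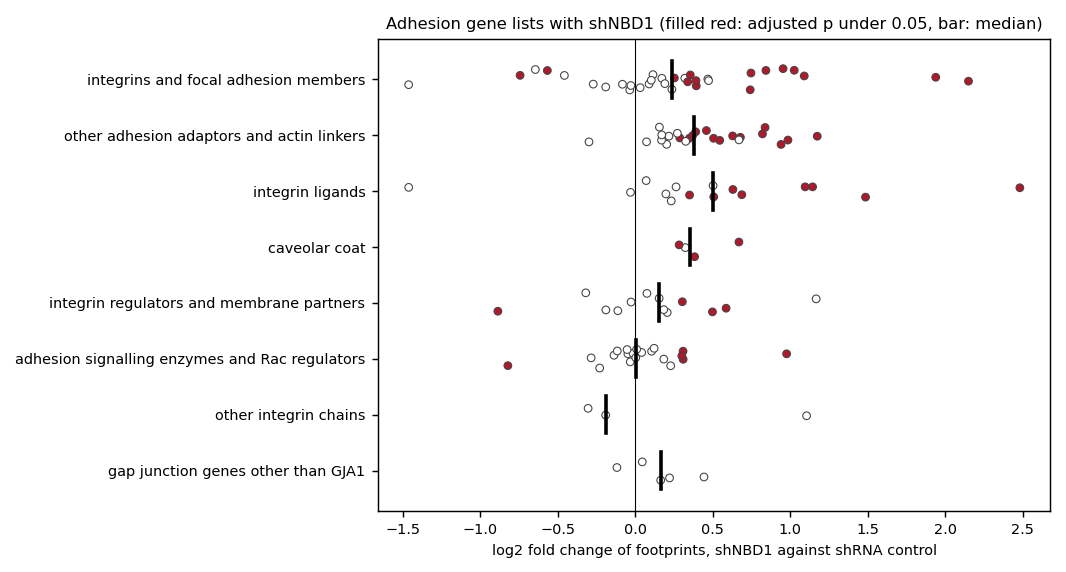
Log2 fold change with shNBD1 against the shRNA control for each tested gene of the members and of 7 lists of other adhesion genes, with small vertical jitter, filled red points past an adjusted p of 0.05 and a bar at each median. The medians of adaptors and of ligands lie at 0.38 and 0.50, those of the signalling enzymes at 0.01.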

How the data were processed

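The deposited files hold raw read counts per feature as the authors made them, 1 file for each library. GRCh38, cutadapt and Bowtie are named in the submitters' processing notes, and per the labels' protocols cells were lysed with cycloheximide for a modified ribosome profiling kit. No version, counting tool, strand setting or handling of shared reads is given in the sources used here. A feature with no row was taken as 0, and 18037 features were summed to 17179 symbols, with 279 symbols holding several.

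All genes were fitted with edgeR 4.0.16 in R 4.3.3: filterByExpr (minimum count 10, total 15), TMM scaling, the 4 groups as the only term over 8 libraries (4 residual degrees of freedom), and Benjamini-Hochberg adjustment over 13306 genes at 0.05. CPM uses the scaled library sizes. Standard errors are those implied by the test. The steps were tested on simulated data, with changes placed in shNBD1 alone and a spread common to all libraries. The unequal spread of the arms was therefore not covered. Members and lists were chosen with earlier results of these data known. Full values were given for members called in any comparison, and for lists up to 3 called genes of smallest p, or 1 where none was called, with a few others (BCAR1, FN1, NPNT, CD82) chosen after their values were seen. Comparing levels per coding length was not done. Alternatives were DESeq2 1.42.0, other scaling and count filters, a replicate block, fits within 1 arm and leaving out libraries. Coordinates are RefSeq's, matched by symbol for all 34 members. Some listed genes were not analysed or are not reported here.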

Additional observations from a re-analysis of the deposited data

Results flagged for a closer look

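For 9 members the response to shNBD1 differed from the response to the inhibitors by a test of the difference between the effects, in edgeR over all genes, of which 7.44% were called. On the log2 scale the difference was 0.96 for GJA1, -0.80 for FERMT2, 2.03 for ITGA9, 1.36 for TNS2, 0.73 for ITGA5, 1.03 for PARVB, 0.41 for TLN1, 0.66 for ITGA3 and 0.48 for ITGA1. Those of PARVB, ITGA5, ITGA3, ITGA1 and TLN1 were lost when any 1 library of the shRNA arm was left out, and the other 4 held in all 15 alternatives. With 2 libraries a group, no search for outlying libraries within a group could be made. ITGA9, PARVB, TLN1 and TNS2 rose with shNBD1 and FERMT2 fell. With the inhibitors none of them was called (adjusted p = 0.835, 0.328, 0.586, 0.179 and 0.149 in the same order, edgeR). Both inhibitor libraries lay below both inhibitor controls for ITGA9, PARVB, TLN1 and TNS2, and above them for FERMT2. The share of all genes separated in this way was not counted, so no opposite response is read from it.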

How the results depend on the processing

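Over 40 member results called in the main fit and their 628 values under alternatives, 545 kept their direction and call. Another 83 kept the direction but lost the call, and 0 changed sign. Only called results of members entered, so calls gained under an alternative and calls of the listed genes are not counted here. Counts are given as higher and lower calls. Where lower calls alone are given, the higher calls changed less in proportion. When the replicate number was added as a block (replicate block), members called were 14 and 4 for shNBD1 and 2 and 2 for the inhibitors (ITGA5 and ZYX higher, ITGA7 and ITGA8 lower). All genes called under the block were 355 and 320 for the inhibitors and 897 and 971 for the difference. The labels say no more than a shared number, and same-numbered libraries deviated together with a correlation of 0.024 in the shRNA arm and 0.478 in the inhibitor arm, and of 0.00549 to 0.193 across arms.

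Fitted on the libraries of 1 comparison alone, shNBD1 gave 17 members higher and 4 lower, with 2725 and 2589 genes. The inhibitors gave 0 members higher and 0 lower, with 0 and 0 genes. For the inhibitors a mean of at least 50 counts gave 0 members lower, the absence of a filter 74 and 105 genes, and DESeq2 39 and 79 genes. DESeq2 gave 1156 genes lower between the controls. An alternative chosen after seeing the data left out inhibitor control replicate 1 and inhibitor replicate 2, with 1 library left in each group and the spread taken from the shRNA arm. It gave 4 members lower and 2699 and 2571 genes for shNBD1, 1 and 2 members and 229 and 272 genes for the inhibitors, 1913 and 1825 genes for the difference, and 15 members lower and 2823 and 2850 genes between the controls.

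Leaving out 1 library at a time gave 5 to 14 members higher and 1 to 3 lower for shNBD1 (266 to 1554 and 266 to 1479 genes). For the inhibitors it gave 0 to 4 higher and 0 to 1 lower (0 to 494 and 0 to 436 genes), the highest without inhibitor replicate 1, where ITGA5, ITGB3, BCAR1 and ZYX were higher. For the difference it gave 3 to 9 higher and 1 lower (82 to 585 and 105 to 550 genes). Between the controls it gave 4 to 6 higher and 2 to 13 lower (509 to 2127 and 568 to 2192 genes). The causes were not tested. With 2 libraries a group, members with few footprints such as ITGB2, ITGB7 and ITGA11 are limited by depth.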
